A study of Homo sapiens with 4 samples.

Results

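Cassette exons of chromatin modifiers and remodelers were taken from an RNA-seq comparison of HEK293T clones with and without the splicing factor RBFOX2. The genes were chosen by symbol alone. They were lysine demethylases (KDM), histone deacetylases (HDAC), SMARC, ARID and CHD remodeling factors and bromodomain proteins (BRD, BRPF, BPTF). Also taken were SET-domain methyltransferases (SETD, EHMT), DNA methylation enzymes (DNMT, TET) and acetyltransferases (KAT). The rest were EP400, an ATPase of the TIP60 acetyltransferase complex, ING proteins and symbols that begin with MLL. The authors' deposited table held 443 events in 398 exons of 101 such genes, out of 31408 events in 27483 exons of 9172 genes. An event is 1 exon with 1 pair of flanking exons, so an exon can be listed in several events. The symbol rule also took genes that do not act on chromatin. MLLT4 (now AFDN) encodes the junction protein afadin, and SETD5-AS1 (now THUMPD3-AS1) is an antisense noncoding RNA. Among the symbols that begin with MLL, those with events were all MLLT genes, and methyltransferases listed under KMT2 symbols were not taken.

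HEK293T is an established human embryonic kidney line. The 4 libraries came from clones of this line, 2 with the genotype WT and 2 with the genotype RBFOX2 KO. The labels give 1 treatment for all 4: the plasmid PX459, which carries Cas9, was transfected with guide RNAs for sites on either side of RBFOX2, and sorted single cells were grown into clones and genotyped by PCR. Each library is 1 clone, and with 2 clones per genotype, differences that arose between clones cannot be told apart from those of the genotype. The stated purpose of the RNA-seq was to find exons that are alternatively spliced without RBFOX2, for comparison with binding data.

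Chromatin regulators set how DNA is packed and read. Methyltransferases and acetyltransferases write chemical marks on histones, demethylases and deacetylases erase them, bromodomain proteins read acetylated lysines, and ATP-dependent remodelers slide or evict nucleosomes. DNMT enzymes methylate cytosine in DNA and TET enzymes oxidize that mark. RBFOX2, also called RBM9, binds GCATG in RNA and can raise or lower the inclusion of nearby cassette exons. A cassette exon is either included in the mature RNA or skipped, and its inclusion level is the share of transcripts that include it, from 0 to 1.

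The differences, p-values and FDR values below are those of the authors' deposited table, which compares a first set of libraries with a second set. A difference is first set minus second set in inclusion level, so a negative value means higher inclusion in the second set. The table names its sets by number only, and no label ties a set to a genotype. Directions are therefore given between sets, and no statement on gain or loss in the knockout is made. Columns with values per library match no label and were not analysed here, so depth, the level in each clone and the spread between clones are not given. The table lists 0 events for RBFOX2, which leaves the knockout unchecked here, and a splicing table holds no expression of cell type markers.

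An event was called where the FDR was under 0.05 and the difference was at least 0.1 in size. Under this rule 20 exons of 15 chromatin genes were called: 7 with higher inclusion in the first set and 13 with higher inclusion in the second. The called genes included KDM8, KDM6A and KDM4B of the KDM symbols, the deacetylase HDAC8 and the remodelers CHD2, CHD3 and CHD9. They also included the acetyl-lysine readers BPTF, BRD8 and BRD9, the methyltransferases EHMT2 and SETD6 and the SET-domain protein SETD5. The others were the DNA demethylation enzyme TET2 and EP400, an ATPase of the TIP60 acetyltransferase complex. Called exons made up 5.03% of the chromatin exons, beside 5.73% of all exons in the authors' deposited table. By direction, 1.76% were called with the first set higher (3.08% of all exons) and 3.27% with the second set higher (2.65% of all exons). Of events, 21 (4.74%) were called, beside 5.15% of all events. Of genes, 14.9% had a called exon, beside 13.7% of all genes. An unadjusted p-value under 0.05 was listed for 56 events (12.6%), beside 12.0% of all events. The shares of events, exons and genes lay near the background of the table, and the split by direction was not tested. With a minimum difference of 0.2, 1.51% of the chromatin exons were called, beside 3.95% of all exons, 0 with the first set higher and 6 with the second. Under Bonferroni correction the shares were 0.503% and 1.68%, with 0 and 2 chromatin exons by direction. Shares by direction over all exons were not taken under these stricter limits, so the splits there have no background and were not tested.

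Differences in chromatin genes were mostly small. In the authors' deposited table the median absolute difference was 0.041 over the 443 events and 0.048 over all events. An absolute difference of at least 0.1 was listed for 113 chromatin events (25.5%), beside 31.5% of all events, and 92 of the 113 were not called. A p-value of 1 was listed for 211 chromatin events (47.6%), beside 51.4% of all events. The largest differences were not called. In all, 13 chromatin events reached an absolute difference of 0.5 in the authors' deposited table, and 11 of these had a p-value of 1. The 13 include 4 events with a difference of 1 in size, in HDAC10 (a 66-nt exon), DNMT1 (118 nt), SMARCC1 (93 nt) and TET2 (94 nt, -1), named here after their values were seen. The largest absolute difference of a called event was 0.445, as the plot of difference against p-value shows.

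**Figure D1:**
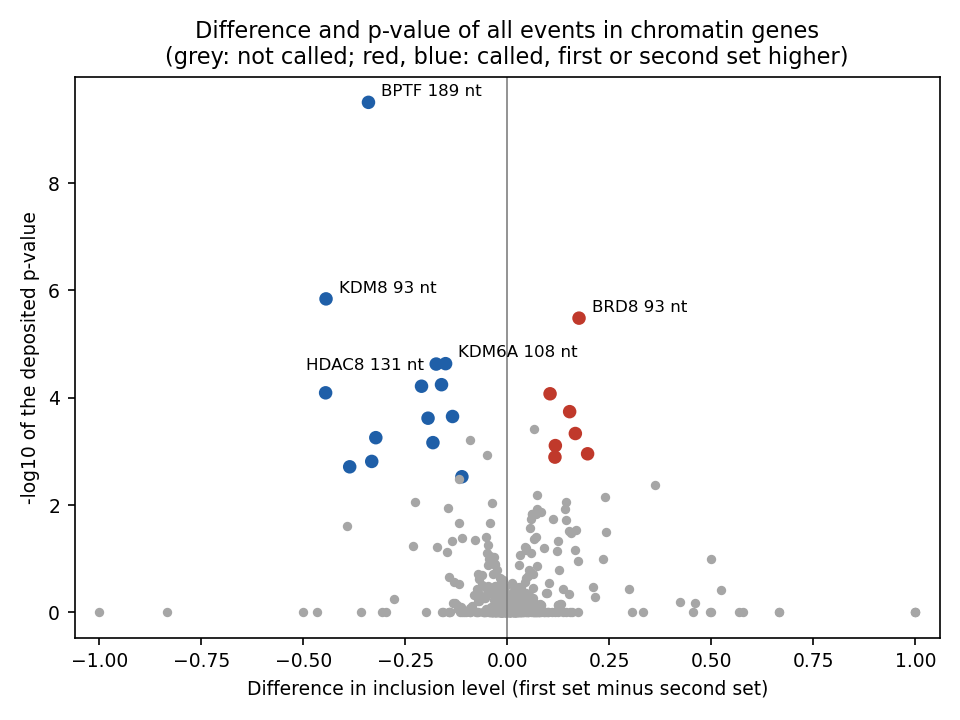
Each point is 1 of the 443 events in chromatin genes, with the difference in inclusion level (first set minus second set) on the horizontal axis and -log10 of the deposited p-value on the vertical axis. Red and blue points are the 21 called events, grey points were not called, and events with an absolute difference of 0.5 or more lie at or near the bottom of the plot with none called.

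The sequences of 6 called exons are printed first, because they carry the contrasts described below. The 6 are the exon with the lowest p-value, the exons of largest difference, those that hold GCATG and the second called exon of KDM6A. The sequences are those of the RNA strand, read from GENCODE 29 transcripts that match each exon's gene, length and flanking intron lengths. Positions are those of the authors' deposited table, on hg19 per the submitters' processing notes. Capitals mark GCATG, and a sequence without capitals does not hold it.
BPTF 189-nt exon (chr17:65871672-65871860, plus strand): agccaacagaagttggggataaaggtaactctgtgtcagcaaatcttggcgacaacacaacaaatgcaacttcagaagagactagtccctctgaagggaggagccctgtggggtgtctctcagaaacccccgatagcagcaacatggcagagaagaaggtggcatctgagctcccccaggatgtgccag
KDM8 93-nt exon (chr16:27231714-27231806, plus strand): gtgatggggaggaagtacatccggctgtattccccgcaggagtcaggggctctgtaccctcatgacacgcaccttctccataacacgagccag
SETD6 142-nt exon (chr16:58550106-58550247, plus strand): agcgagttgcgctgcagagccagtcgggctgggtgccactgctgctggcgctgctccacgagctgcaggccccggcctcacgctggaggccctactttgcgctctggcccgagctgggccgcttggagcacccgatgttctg
KDM6A 156-nt exon (chrX:44919854-44920009, plus strand): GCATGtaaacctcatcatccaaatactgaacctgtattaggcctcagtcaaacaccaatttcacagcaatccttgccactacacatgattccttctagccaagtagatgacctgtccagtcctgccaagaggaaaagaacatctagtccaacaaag
KDM6A 108-nt exon (chrX:44965787-44965894, plus strand): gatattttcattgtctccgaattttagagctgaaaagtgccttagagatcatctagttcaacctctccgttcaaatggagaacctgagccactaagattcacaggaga
EHMT2 149-nt exon (chr6:31856376-31856524, minus strand): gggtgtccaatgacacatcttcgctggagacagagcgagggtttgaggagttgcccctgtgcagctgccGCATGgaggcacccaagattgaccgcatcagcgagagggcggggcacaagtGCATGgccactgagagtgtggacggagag

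GCATG was searched within exons, on the transcript strand. It was found in 2 of the 20 called chromatin exons (10%), EHMT2 and the 156-nt exon of KDM6A. Among the 352 chromatin exons that matched a transcript, 45 (12.8%) held it, beside 11.6% of all matched exons and 10.2% of all called exons that matched. EHMT2 holds it at bases 70 and 121, counted from the exon's 5′ end, and KDM6A holds it at base 1. Longer exons hold more letters, so the same share was taken over matched exons of 140 to 160 nt: 347 of 2444 (14.2%) held at least 1 copy and 30 (1.23%) held 2 or more. Flanking introns, where RBFOX proteins are known to bind as well, were not searched. No binding data were used, so RBFOX2 binding at or near the called exons, with or without GCATG, was not tested.

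Among the KDM genes, grouped by symbol, all 4 called exons had higher inclusion in the second set. The family had 55 events in 53 exons of 16 genes, and 7.55% of its exons were called, beside 5.73% of all exons. With the first set higher 0 exons were called, beside 3.08% of all exons, and the direction was not tested. The 93-nt exon of KDM8 (ENSG00000155666), a JmjC-domain protein also called JMJD5, had a difference of -0.444 (FDR 8.81e-05) in the authors' deposited table. This is the seventh of 8 exons in the matched coding transcript, and its length is divisible by 3, so skipping it keeps the reading frame. The table lists 1 further event for KDM8, which has a positive difference of 0.051. KDM4B (ENSG00000127663), which removes methyl groups from lysine 9 of histone H3, had a 102-nt exon at chr19:5119129-5119230. Its difference was -0.182 (FDR 0.0153) in the authors' deposited table, and the exon is coding and divisible by 3.

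KDM6A (ENSG00000147050), also called UTX, erases methyl marks on lysine 27 of histone H3 and had 2 called exons among the 8 listed for it. The 156-nt exon, printed above, had a difference of -0.386 (FDR 0.0352) in the authors' deposited table. Another exon, of 108 nt, lies 45933 nt further along the gene and had -0.151 at a lower FDR, 9.51e-04. Both are coding, and both lengths are divisible by 3. A coding 102-nt exon between them (chrX:44921892-44921993) had a difference of 0.141, of the opposite sign, in the authors' deposited table, and at an FDR of 0.145 it was not called. The remaining 5 exons of KDM6A had differences from -0.037 to 0.081 in the authors' deposited table, none called.

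The other KDM genes had no called exon. A coding 182-nt exon of KDM5C, which acts on lysine 4 of histone H3, passed the FDR limit alone, with -0.049 (FDR 0.0238) in the authors' deposited table. KDM1A (LSD1), the family's gene with the most events, had 9 with differences from -0.031 to 0.112. The latter belongs to a coding 60-nt exon with an FDR of 0.197. The median absolute difference over the family's events was 0.037.

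**Figure D2:**
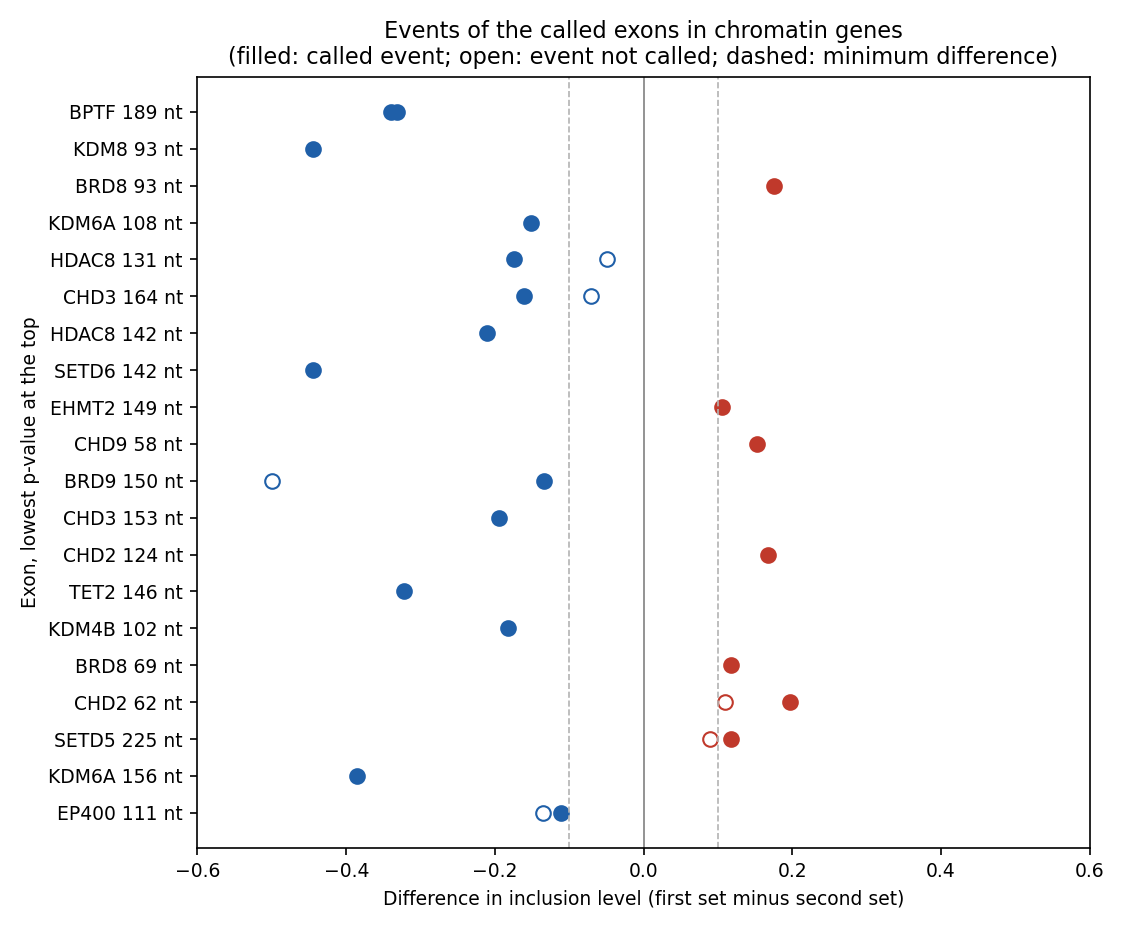
Rows are the 20 called exons, ordered by p-value, and the horizontal axis is the difference in inclusion level (first set minus second set). Filled points are the 21 called events and open points the 6 events of the same exons that were not called. In each row all points lie on the same side of 0, and events of the same exon share inclusion reads.

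Among the deacetylases, HDAC8 was the single gene of 11 with called exons. Of the family's exons 4.08% were called, beside 5.73% of all exons. HDAC8 (ENSG00000147099) deacetylates the cohesin subunit SMC3 as well as other proteins. Its called exons lie next to each other, are listed against the same skipping junction, and had higher inclusion in the second set. The 142-nt exon (chrX:71787739-71787880, minus strand) had a difference of -0.21 (FDR 0.00213) in the authors' deposited table. Its 131-nt neighbour (chrX:71788604-71788734, minus strand) had -0.174 at an FDR of 9.63e-04. Because both events count the same skipping reads, they are not independent measurements.

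Neither HDAC8 length is divisible by 3, and their sum, 273 nt, is. The 131-nt exon is coding in its other event, which pairs it with other flanking exons; that event had a difference of -0.049 (FDR 0.573) in the authors' deposited table. In the structure of the called event, GENCODE 29 has it only in a transcript marked for nonsense-mediated decay, the pathway that degrades RNAs with early stop codons. In the structure of its own event, which leaves out the 131-nt exon, the 142-nt exon also matched only transcripts marked for that pathway. Its edges are, however, the flanks of coding HDAC8 events at the 131-nt exon and at a 113-nt exon further along, so with the 131-nt exon included it belongs to coding transcripts. Read in the frame of the transcript without the 131-nt exon, it meets a stop codon that ends at its base 7. The 131-nt exon and the start of the 142-nt exon are printed to show this, with the stop codon in capitals.
HDAC8 131-nt exon: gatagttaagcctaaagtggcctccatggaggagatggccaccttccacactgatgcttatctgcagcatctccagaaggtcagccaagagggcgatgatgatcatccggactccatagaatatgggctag
HDAC8 142-nt exon, first bases: gttaTGA

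Of the 9 HDAC8 events, 8 had a negative difference, and the one with a positive difference had 0.015 in the authors' deposited table. The 6 events at other HDAC8 exons ranged from -0.105 to 0.015, and none was called. Elsewhere in the family, HDAC1, a core subunit of NuRD and Sin3 complexes, had 6 events between -0.006 and 0.006. HDAC2 had 3 events between -0.004 and 0.007 in the authors' deposited table. These exons of HDAC1 and HDAC2 were listed with close to the same level in both sets. HDAC7, a class IIa deacetylase, had 6 events, all positive, from 0.034 to 0.143, with a lowest FDR of 0.17. HDAC3 had a coding 143-nt exon with 0.074 and an FDR of 0.0882, and HDAC11 a 77-nt exon with -0.392 and an FDR of 0.247 in one event and -0.043 and an FDR of 0.225 in another. These HDAC genes other than HDAC8 are named after their values were seen.

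Among the CHD remodelers, 5 exons of 3 genes were called, in both directions. The family had 57 events in 49 exons of 9 genes, and 10.2% of its exons were called, beside 5.73% of all exons. In CHD3 both called exons had higher inclusion in the second set, and in CHD2 and CHD9 the 3 called exons had higher inclusion in the first set.

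CHD3 (ENSG00000170004) is an ATPase subunit of the NuRD complex. Its called exons are forms of one exon that end at the same base and start 11 nt apart. The 164-nt form (chr17:7813746-7813909, plus strand) had a difference of -0.161 (FDR 0.00202) in the authors' deposited table, and the 153-nt form (chr17:7813757-7813909) had -0.194 at an FDR of 0.00655. Both are listed against the same skipping junction, so the events share reads. The 153-nt form is divisible by 3 and the 164-nt form is not. A further event of the 164-nt form had -0.071 at an FDR of 1. All 6 CHD3 events had negative differences. The longer form is printed with the 11 bases absent from the shorter form in capitals.
CHD3 164-nt exon: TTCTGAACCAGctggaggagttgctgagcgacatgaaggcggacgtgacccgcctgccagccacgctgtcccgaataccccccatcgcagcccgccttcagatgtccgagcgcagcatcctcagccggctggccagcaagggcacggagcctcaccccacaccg

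CHD2 (ENSG00000173575), a remodeler whose loss-of-function variants are known in epilepsy, had 13 events, the most in its family. Of these, 12 had a positive difference and 1 a negative one in the authors' deposited table. One called exon, of 62 nt (chr15:93472260-93472321, plus strand), had 0.197 at an FDR of 0.0227, and its other event had 0.109 at a p-value of 1. It is coding in the matched transcripts and not divisible by 3, so skipping it shifts the reading frame. No GENCODE 29 transcript of CHD2 was found with its skipping junction. The 124-nt exon (chr15:93541368-93541491), 69108 nt further along, had 0.167 (FDR 0.0111) in the authors' deposited table. This exon matched only a transcript marked for nonsense-mediated decay, and in its frame a stop codon ends at base 6. An overlapping 113-nt form had 0.07 at an FDR of 1. The called CHD2 exons thus differ in annotation: including the 62-nt exon keeps the coding frame, and including the 124-nt exon brings a stop codon. The whole 62-nt exon and the first bases of the 124-nt exon show this, with the stop codon in capitals.
CHD2 62-nt exon: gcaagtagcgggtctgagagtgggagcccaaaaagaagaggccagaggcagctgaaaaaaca
CHD2 124-nt exon, first bases: cttTAA

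CHD9 (ENSG00000177200) had a 58-nt exon (chr16:53257362-53257419, plus strand) with a difference of 0.153 (FDR 0.00521) in the authors' deposited table. Its only match was a transcript with no annotated protein product. In the remaining CHD genes no exon was called. CHD4, the other main NuRD ATPase, had 3 events between -0.012 and 0.009, all with a p-value of 1. CHD1 had 5 events, all negative, from -0.063 to -0.022, with a lowest p-value of 0.199. CHD1L, a PARP-linked remodeler, had the exon nearest to the minimum difference from below among those that passed the FDR limit: its 111-nt exon (chr1:146743832-146743942) was listed at -0.09 (FDR 0.0141) in the authors' deposited table.

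**Figure D3:**
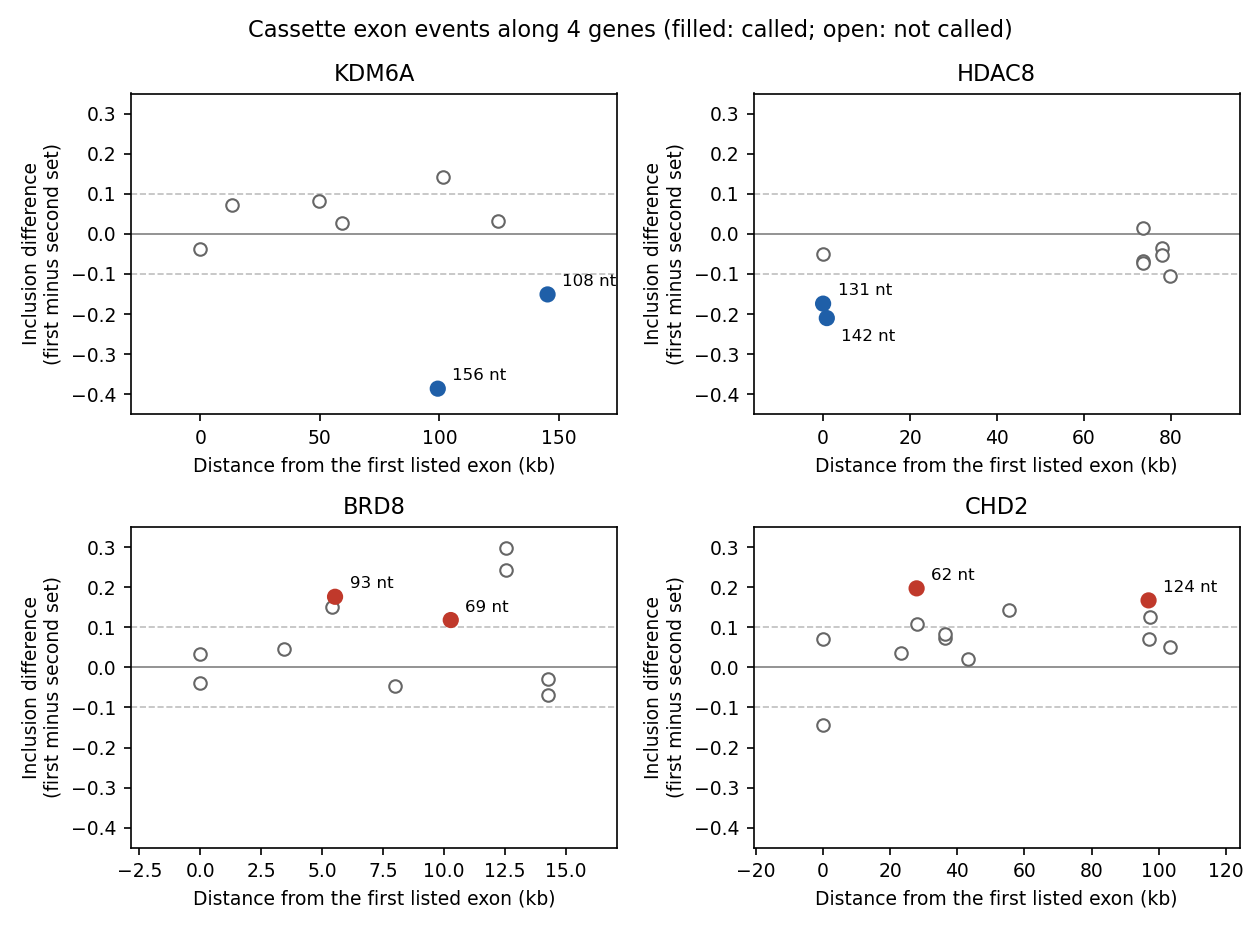
Events along KDM6A, HDAC8, BRD8 and CHD2, with the distance in kb from each gene's first listed exon in the direction of transcription on the horizontal axis and the inclusion difference (first set minus second set) on the vertical axis. Filled points are called (red, first set higher; blue, second set higher), open points were not called, and dashed lines mark differences of 0.1 in size. The called exons lie at -0.386 and -0.151 in KDM6A, -0.174 and -0.21 in HDAC8, 0.176 and 0.118 in BRD8, and 0.197 and 0.167 in CHD2.

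Among the bromodomain genes and BRPF scaffolds, 4 exons of 3 genes were called out of 44 exons in 10 genes. This was 9.09%, beside 5.73% of all exons, with each direction taking 2. BPTF (ENSG00000171634) is the largest subunit of the NURF remodeling complex and reads both methylated and acetylated histones. Its 189-nt exon, printed above, had the lowest p-value of all chromatin events. In the authors' deposited table its events had differences of -0.34 (FDR 6.14e-08) and -0.332 (FDR 0.0295), and it was the only chromatin exon with more than 1 called event. The exon is coding, is the fifth of 30 exons in the matched transcript and is divisible by 3. Another coding BPTF exon of the same length (chr17:65882244-65882432) is the next exon downstream in the event with the lower FDR. The other called event leaves this neighbour out. The neighbour's own events had -0.131 and -0.07, and neither was called. A coding 174-nt exon of BPTF had -0.118 with an FDR of 0.226. Of the 10 BPTF events, 8 had a negative difference.

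BRD8 (ENSG00000112983), a bromodomain subunit of the TIP60 complex, had 2 called exons, both coding, both divisible by 3 and both with higher inclusion in the first set. The 93-nt exon (chr5:137502207-137502299, minus strand) had a difference of 0.176 (FDR 1.77e-04) in the authors' deposited table. A 210-nt form that overlaps it had 0.151 at an FDR of 0.285. The 69-nt exon (chr5:137497485-137497553) had 0.118 at an FDR of 0.017. A 45-nt exon of BRD8 had a larger difference, 0.243, with an FDR of 0.299, and 0.298 with an FDR of 1 in its other event. The differences of these BRD8 exons were all positive, whereas those at the 47-nt and 253-nt exons were between -0.07 and -0.03. The called BRD8 exons are printed here as the ones called in the direction opposite to BPTF; neither holds GCATG.
BRD8 93-nt exon: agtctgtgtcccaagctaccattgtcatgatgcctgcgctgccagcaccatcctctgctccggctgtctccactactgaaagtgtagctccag
BRD8 69-nt exon: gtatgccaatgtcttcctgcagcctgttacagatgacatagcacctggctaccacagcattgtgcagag

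BRD9 (ENSG00000028310), a subunit of the non-canonical BAF remodeling complex, had a 150-nt exon (chr5:869360-869509, minus strand) with a difference of -0.134 (FDR 0.00618) in the authors' deposited table. In both of its events it matched only transcripts marked for nonsense-mediated decay. The other event of this exon had -0.5, with its p-value listed as 1. An overlapping 160-nt form (chr5:869360-869519) had -0.054 and was not called. A second BRD9 exon, of 513 nt (chr5:868722-869234), missed the FDR limit with a difference of 0.363 and an FDR of 0.0636. It matched only transcripts marked for the same pathway, and its sign was opposite to that of the 150-nt exon. Its upstream flank starts at the edge shared by the 150-nt and 160-nt forms. Reads that skip the 513-nt exon count as inclusion in the called event, so the 2 signs are not independent.

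Among the SETD and EHMT genes, grouped here as methyltransferases, 3 exons were called in 3 of 14 genes. This was 6.12% of the group's exons, beside 5.73% of all exons. SETD6 (ENSG00000103037), which methylates the NF-kappa-B subunit RELA, had the largest called difference of all chromatin exons. Its 142-nt coding exon, printed above, was listed at -0.445 (FDR 0.00268) in the authors' deposited table. It is not divisible by 3, and no GENCODE 29 transcript of SETD6 was found with its skipping junction. The other SETD6 event, at a coding 145-nt exon (chr16:58549857-58550001), had -0.037. That exon lies within the upstream intron (321 nt) of the called event. The called difference therefore holds for the structure without the 145-nt exon, which matched 1 transcript.

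EHMT2 (ENSG00000204371), also called G9a, methylates lysine 9 of histone H3. Its 149-nt exon, the one with 2 copies of GCATG, had the smallest called difference, 0.105 (FDR 0.00275), in the authors' deposited table. It is coding and not divisible by 3. No annotated transcript of EHMT2 was found with the skipping junction of the 149-nt exon. A 102-nt coding exon of EHMT2 (chr6:31856746-31856847) had a larger difference, 0.156, and an FDR of 0.309. That exon lies within the upstream intron (480 nt) of the called event. The called difference therefore holds for the structure without the 102-nt exon, which matched 2 transcripts. Reads that skip the 102-nt exon in favour of the 149-nt exon count as inclusion in the called event. The differences of these exons are therefore not independent. EHMT1, the partner of EHMT2, had 7 events and no call; its lowest FDR was 0.277, for a 78-nt coding exon with 0.169.

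SETD5 (ENSG00000168137) had 14 events, the most of the methyltransferases. Its 225-nt exon (chr3:9471511-9471735, plus strand) had a difference of 0.117 (FDR 0.0254) in the authors' deposited table, and 0.089 at an FDR of 0.502 in its other event. In both events it matched only transcripts marked for nonsense-mediated decay. Although the length is divisible by 3, a stop codon in the frame of the transcript matched by the called event ends at base 88. SETD2, which trimethylates lysine 36 of histone H3, had 7 events, all positive, between 0.009 and 0.082, with a lowest p-value of 0.554.

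TET2 was the only called gene among the DNA methylation enzymes, with 4.76% of their exons called, beside 5.73% of all exons. TET2 (ENSG00000168769) oxidizes methylated cytosine, and its called 146-nt exon (chr4:106111517-106111662, plus strand) lies in the 5′ UTR of the matched transcripts. The difference was -0.322 (FDR 0.0128) in the authors' deposited table. DNMT1, the maintenance methyltransferase, had 11 events with a median absolute difference of 0.009 and no call. Its lowest FDR was 0.346, for a coding 48-nt exon with -0.053. DNMT3B had 3 events between 0.002 and 0.016.

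EP400 (ENSG00000183495), an ATPase, was grouped with the KAT acetyltransferases and was the only called gene of that group. Of the group's exons 4.00% were called, beside 5.73% of all exons. The 111-nt exon of EP400 (chr12:132448077-132448187, plus strand) had a difference of -0.111 (FDR 0.0489) in the authors' deposited table, the highest FDR of any called chromatin event. The other event of this exon had -0.135, of the same sign, at an FDR of 0.402. The exon is coding and divisible by 3. The KAT enzymes had 18 events and no call.

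The genes under SMARC, ARID1 and ARID2 symbols, which are SWI/SNF subunits and related ATPases outside that complex such as SMARCA1, SMARCAD1 and SMARCAL1, had no called exon. They had the most events of any family: the 15 genes had 72 events in 60 exons, of which 3 events had an unadjusted p-value under 0.05, and the median absolute difference was 0.027 in the authors' deposited table. SMARCC1, a core BAF subunit, had 17 events, the most of any chromatin gene, and a lowest p-value of 0.33. ARID1B had 10 events with a lowest p-value of 0.197, and the ATPase SMARCA4 had 9, from -0.033 to 0.045. The exon nearest to a call was a coding 66-nt exon of SMARCC2 (chr12:56558087-56558152) with 0.24 and an FDR of 0.0968. A coding 36-nt exon of SMARCA1, an ISWI-type ATPase, had -0.227 and an FDR of 0.113. A lack of calls does not show that these exons were equal in both sets, since the reads behind each event were not analysed.

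The ARID3 to ARID5 genes (17 events), the ING genes (6 events) and the MLLT genes (25 events) also had no call. ARID4A had 6 events, all negative, from -0.298 to -0.058, with a lowest p-value of 0.557 in the authors' deposited table. MLLT4 lay close to the limits from both sides. Its coding 45-nt exon (chr6:168294542-168294586) passed the FDR limit at 0.00951 with a difference of 0.065, and its coding 21-nt exon (chr6:168314083-168314103) had -0.119 with an FDR of 0.0519.

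**Figure D4:**
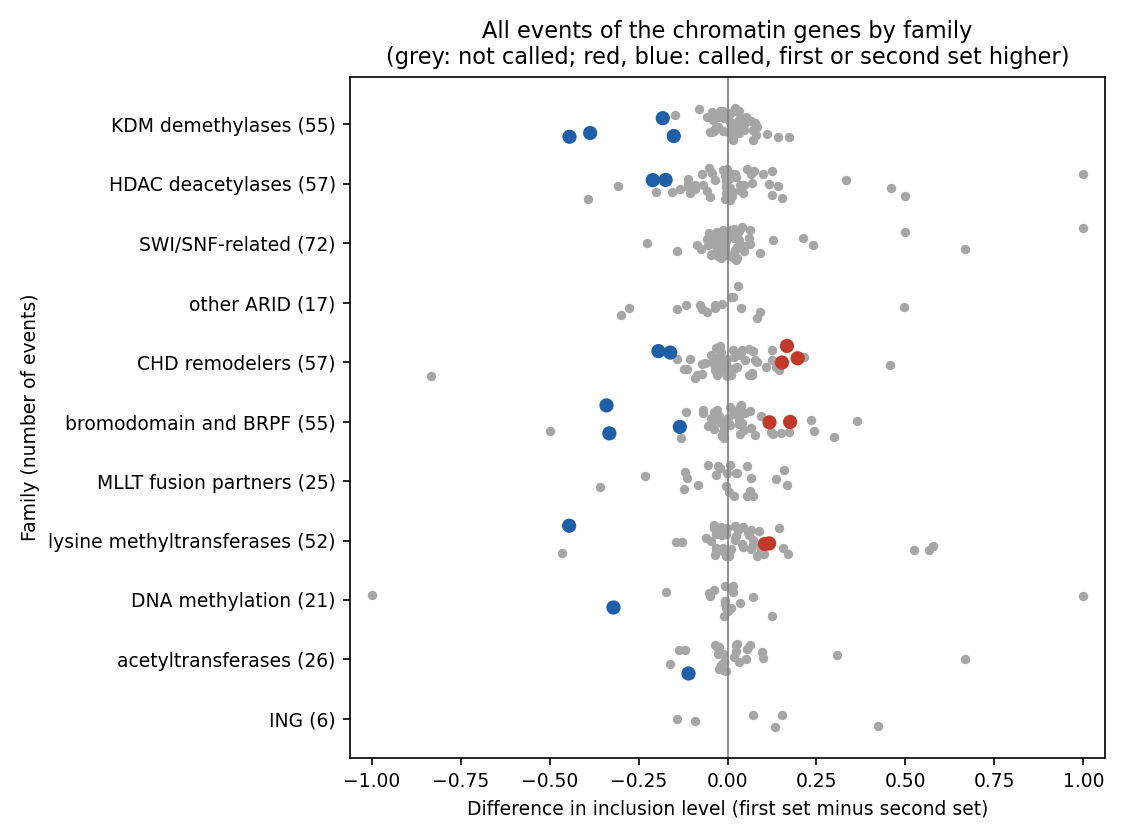
Each point is 1 of the 443 events, placed by its inclusion difference (first set minus second set) in the row of its gene family, with the number of events in parentheses. Red and blue points are called with the first or the second set higher; all called KDM and HDAC events are blue, and the SWI/SNF-related, other ARID, MLLT and ING rows have none.

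Length and reading frame were not used to choose the genes. The median length of the called exons was 136.5 nt, beside 118.5 nt for all 398 chromatin exons, 117 nt for all exons of the table and 111 nt for all its called exons. None of the 20 was 51 nt or shorter, beside 33 chromatin exons (8.29%), 7.2% of all exons and 11.1% of all called exons. Microexons of at most 27 nt numbered 3, a 27-nt exon of KDM5A (-0.012), the 21-nt exon of MLLT4 and a 16-nt exon of SETD2 (0.082). Of the 20 called exons, 11 had lengths divisible by 3 (55%), beside 161 of the 398 (40.5%), 40.7% of all exons and 46% of all called exons. By direction it was 3 of 7 with the first set higher and 8 of 13 with the second set higher. These are counts of few exons, given without a test.

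Coding status was read with the flanking introns of the listed events. Of the 20 called exons, 14 are coding in at least 1 transcript matched in this way (70%). The share was 76.1% of the matched chromatin exons, 66.1% of all matched exons and 58.2% of all called exons that matched. Another 4 matched only transcripts marked for nonsense-mediated decay (20%), in HDAC8, BRD9, CHD2 and SETD5. This was so for 10.5% of the matched chromatin exons, 10.2% of all and 9.94% of all called exons that matched. For the 142-nt exon of HDAC8 such a match holds only for the structure of its event, as described above. The remaining 2 are the CHD9 exon without a protein product and the TET2 exon in the 5′ UTR. In 7 of the 20 called exons more than 1 event was listed. The events of these exons that were not called numbered 6, and each had the sign of the called event. In each of the 7 exons the events share 1 flanking intron and so count some of the same inclusion reads. The shared sign is therefore not an independent repeat.

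Of the 15 genes with a called exon, 8 were among the 18 chromatin genes with 8 or more events, and none was among the 20 genes with 1 event. A gene with more events has more chances of a call, and the same split was not taken over all genes of the table. The 5 genes with 2 called exons were KDM6A, HDAC8, BRD8, CHD2 and CHD3, and in each both exons had the same direction. For HDAC8 and CHD3 the shared skipping junction makes this less than an independent repeat.

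The same call was made for chromatin genes that the symbol rule does not take, a list of 194 symbols that includes polycomb, NuRD, INO80, PRMT, NSD and KMT2 genes. Of these, 164 had events, and 33 of their 653 exons (5.05%) were called in 24 genes (14.6%), again near the 5.73% and 13.7% of the table. The directions were 22 with the first set higher and 11 with the second, against 7 and 13 for the genes above; whether these splits differ was not tested. The median absolute difference was 0.033. Among the called genes with the lowest p-values were MEAF6, GATAD2A, PRMT7, SS18, KANSL2, PRMT2, SUV420H2, SCMH1 and MTA1. MEAF6, a subunit shared by KAT complexes, had a 58-nt exon with -0.319 (FDR 1.66e-13) in the authors' deposited table. This MEAF6 exon matched only transcripts with no protein product. Also in that table, GATAD2A, a NuRD subunit, had an 89-nt 5′ UTR exon with 0.491, and MTA1, another NuRD subunit, a coding 36-nt exon with -0.233. PRMT7, an arginine methyltransferase, had a 48-nt exon with 0.351 in the authors' deposited table. SS18, a BAF subunit, had a 124-nt exon with 0.778 that matched only transcripts marked for nonsense-mediated decay, so a BAF gene was called although none under a SMARC or ARID symbol was. KANSL2, a subunit of the NSL acetyltransferase complex, had a coding 115-nt exon with 0.145. PRMT2, an arginine methyltransferase, had a coding 172-nt exon with -0.466 in the authors' deposited table. SUV420H2, which methylates lysine 20 of histone H4, had a coding 166-nt exon with 0.408, and the polycomb gene SCMH1 a 209-nt exon with 0.5.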

How the data were processed

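RNA-seq of 4 HEK293T clones (2 labelled WT, 2 labelled RBFOX2 KO) was deposited as 1 table of skipped-exon events with junction counts, in the format of rMATS. Libraries were ribosomal RNA-depleted and stranded, per the labels' protocols. STAR 2.7.3a and hg19 are named in the submitters' processing notes; the rMATS version and annotation are not given in the sources used here. The p-value and FDR of each event are the authors' deposited values, and the FDR equals a Benjamini-Hochberg adjustment over all 31408 events (largest gap 1.11e-16). The inclusion difference, also deposited by the authors, was read as first set minus second set, which is the rMATS convention. Per the file headers, inclusion and skipping junction reads are scaled by effective lengths (94 nt for skipping, 97 to 188 nt for inclusion), so short exons have fewer read positions.

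The 6 columns of values per library carry no name that matches a label and were not used. No count model was fitted, and depth, intervals and the spread between clones are not given. Clones of a genotype come from separate sorted cells, and p-values cover the spread between these 4 libraries only.

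Genes were taken by symbol. Events with the same exon position and strand were merged into 1 exon. An exon was called if any event had an FDR under 0.05 and an absolute difference of at least 0.1, and it took the direction of its called event with the lowest p-value. GENCODE 29 transcripts of the same gene identifier were searched for an exon of equal length between introns of equal lengths; no coordinate was used, since that annotation is on GRCh38, and coding status, frame and sequence come from the match. GCATG was searched on the transcript strand. No hg19 genome was used here, so introns were not searched.

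Named were all member genes with a called exon, the 3 exons nearest the limits on each side, the 10 called genes of the further list with the lowest p-values, and genes with the most events per family; any other gene was picked with its values in view. Of the genes this rule chose, 1 is not reported here. The members and lists were chosen with earlier results of these data known. The alternatives were FDR limits of 0.01 and 0.1, Bonferroni correction, minimum differences of 0 and 0.2, and a correction for events per exon. The calling step was tested on simulated data. Python 3.11.15, pandas 2.3.3, numpy 2.4.6 and matplotlib 3.10.9 were used.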

Additional observations from a re-analysis of the deposited data

How the results depend on the processing

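Fewer exons were called under stricter limits, by construction. At an FDR under 0.01, 12 events and 12 exons were called, 3 with the first set higher, and 8 of the 20 called exons were lost (those of TET2, KDM4B, SETD5 and EP400, both of CHD2, the 69-nt exon of BRD8 and the 156-nt exon of KDM6A). Under Bonferroni correction over the table, 2 events in 2 exons of 2 genes were called (BPTF and KDM8), 0 with the first set higher and 2 with the second. Of the 653 exons of the further chromatin list, 9 were called under it. At a minimum difference of 0.2, 7 events in 6 exons of 6 genes were called, 0 with the first set higher and 6 with the second: BPTF, KDM8, SETD6, TET2, the 142-nt exon of HDAC8 and the 156-nt exon of KDM6A. Under these 3 alternatives 3.91%, 1.68% and 3.95% of all exons in the table were called, beside 3.02%, 0.503% and 1.51% of the chromatin exons. Shares by direction over all exons were not taken under these alternatives, so their splits by direction have no background. An FDR under 0.1 and no minimum difference each gave 23 exons (5.78%), beside 6.87% and 6.78% of all exons. Correction for events per exon gave 20 (5.03%), beside 5.52% of all exons. No difference changed its sign, since each alternative only moves a limit.

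No paired analysis was possible because no column of the table can be tied to a clone. For the same reason, leaving out each library was not run, and how far 1 clone decides a call was not tested. Coverage per event was not analysed, and the reads behind exons without a call are not known here.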
